A study of Mus musculus with 16 samples.

Results

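The data described here are the levels of 9 genes that mark cerebellar Purkinje and granule neurons in RNA-seq of brain microglia from mice with experimental autoimmune encephalomyelitis (EAE) and from PBS-treated mice. The 9 genes were chosen by symbol, Pcp2, Calb1 and Car8 for Purkinje cells and Cbln1, Cbln3, Zic1, Zic2, Fat2 and Neurod1 for granule cells, out of 21878 mRNAs in the count and FPKM tables. All mice were female wild-type C57BL/6 animals, 8 weeks old. The 8 EAE mice received MOG peptide in complete Freund's adjuvant with pertussis toxin, and the 8 controls received PBS. Brains were taken at the peak of disease, on day 14, and the labels describe the sorted cells as CD11b+/CD45int. Each mouse gave 1 total RNA library after removal of ribosomal RNA. The methods give MOG 35–55 as the peptide, while the treatment label of the EAE mice has a last residue that rises from 55 in EAE 1 to 62 in EAE 8. Library totals ran from 24587443 to 34184576 counts.

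Purkinje cells are the large inhibitory output neurons of the cerebellar cortex, and granule cells are the small, very numerous excitatory neurons whose parallel fibres contact them. Granule cells release cerebellins, which bind presynaptic neurexins and hold the synapse onto Purkinje cell spines together. None of the 9 genes is a known marker of microglia.

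All 9 genes were detected in each of the 16 libraries, at levels that ranged from near 0 to moderate. FPKM, which divides counts by transcript length and library size, allows the genes to be ordered. Calb1, the calcium-binding protein calbindin, was highest with a mean of 15.9 FPKM and lay above the next gene in 16 of 16 libraries. Zic1 followed with 6.0 FPKM, above Zic2 in 14 of 16 libraries. Zic2 at 4.92 FPKM and Cbln1 at 4.49 FPKM were not separated, since Zic2 was the higher in 10 of 16 libraries. Pcp2 at 2.33 FPKM and Neurod1 at 2.04 FPKM were not separated either, with Pcp2 the higher in 9 of 16. Car8 averaged 1.56 FPKM. The lowest were Fat2 at 0.175 FPKM and Cbln3 at 0.126 FPKM, with Fat2 above Cbln3 in 13 of 16 libraries. Among all 21878 mRNAs, the mean of Calb1 stood at percentile 82.0, that of Fat2 at 27.9 and that of Cbln3 at 26.1.

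**Figure D1:**
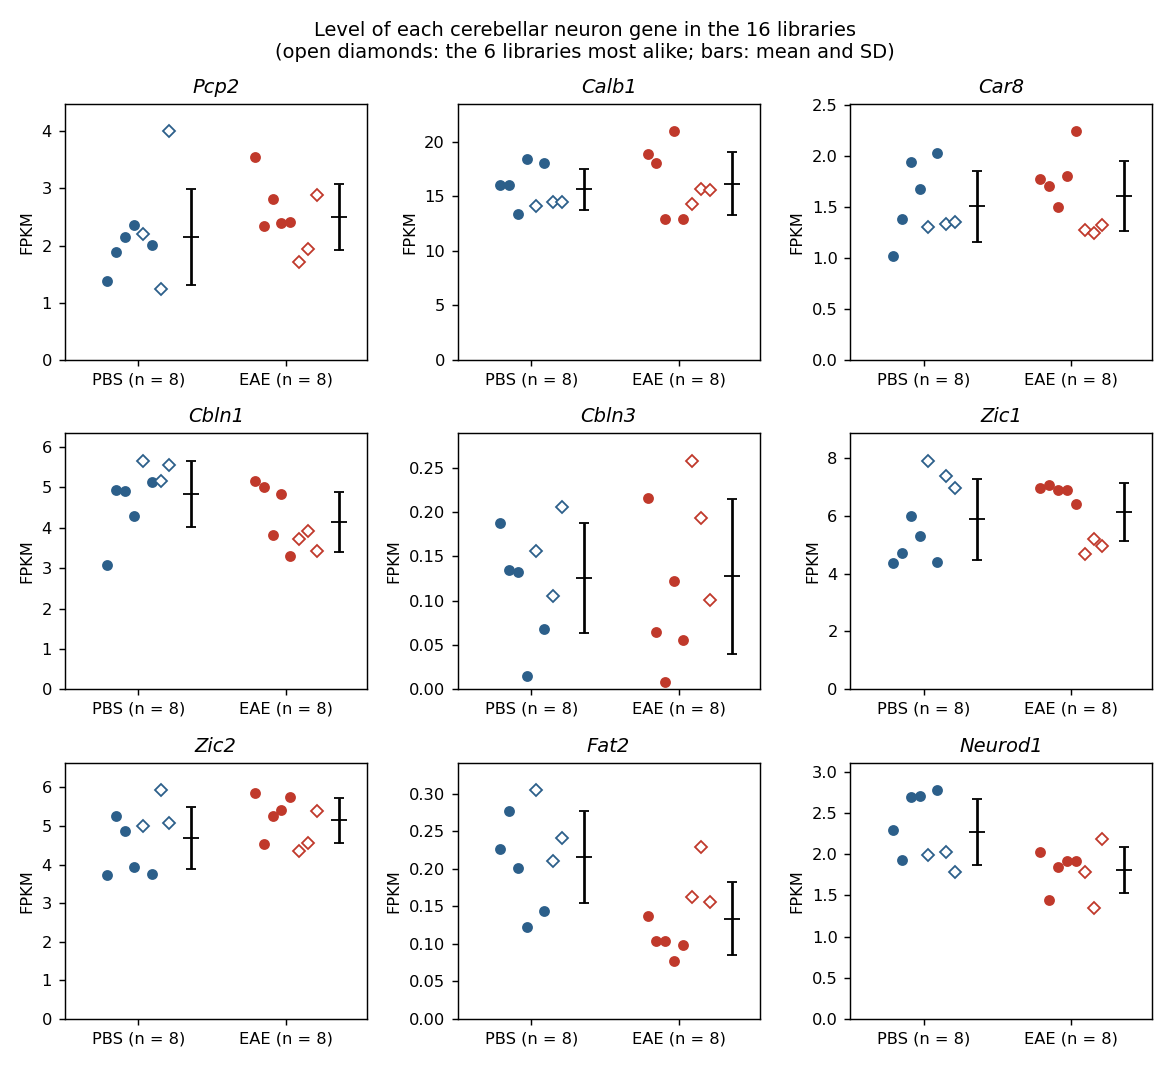
FPKM of each of the 9 genes in the 8 PBS and 8 EAE libraries, 1 point per library, with the mean and SD beside each group and each vertical axis from 0. Open diamonds are the 6 libraries most alike in all their counts (EAE 6, 7 and 8 and PBS 5, 7 and 8), and in the Zic1 panel the EAE diamonds lie at 4.68 to 5.18 FPKM below the PBS diamonds at 6.95 to 7.90 FPKM while the filled points lie the other way round.

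The comparison of EAE with PBS-treated mice asked whether the cerebellar content of the libraries moved with disease. None of the 9 genes was a DEmRNA (adjusted p under 0.05 and an absolute log2FC over 1), against 0.117% of the 17885 mRNAs tested. None of the 9 had an adjusted p under 0.05 in edgeR's quasi-likelihood test, where 2.42% of all mRNAs had. At an unadjusted p under 0.05, 3 of the 9 were lower in EAE (Fat2, Neurod1 and Cbln1) and 0 were higher, against 9.52% and 7.92% of all mRNAs. The median log2FC was 0.04 over the 3 Purkinje genes and -0.15 over the 6 granule genes, beside 0.0092 over all mRNAs. DESeq2 called 1 of the 9, Fat2, where it called 5.03% of all mRNAs. In RNA of a whole preparation, fewer cells of a type and less RNA per cell cannot be told apart.

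The Purkinje genes differed by less than the spread between mice. Pcp2, a regulator of G-protein signalling that is nearly confined to Purkinje cells in brain, ran from 1.72 through a median of 2.41 to 3.56 FPKM in EAE mice and from 1.24 through 2.07 to 4.01 FPKM in PBS-treated mice. The groups overlapped throughout, and the highest value was in PBS 8, far above the second PBS library at 2.36 FPKM. The log2FC of Pcp2 was 0.17 ± 0.22 (SE, n = 8 against 8, edgeR adjusted p = 0.749), and without PBS 8 it was 0.36 (edgeR adjusted p = 0.373). These values rest on 27 to 93 counts per library.

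Calb1 buffers calcium in Purkinje cells, and is also made by neurons of the striatum, hippocampus and cortex. It ran from 12.9 through 15.6 to 21.0 FPKM in EAE mice and from 13.4 through 15.3 to 18.4 FPKM in PBS-treated mice. The means of 16.1 ± 2.91 and 15.6 ± 1.85 FPKM (SD, n = 8) gave a fold of 0.997 with a 95% interval of 0.877 to 1.13 (from the standard error). Calb1 had the most counts of the set, 908 to 1561 per library.

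Car8, a carbonic anhydrase-related protein without enzyme activity that binds the IP3 receptor, ran from 1.24 through 1.60 to 2.24 FPKM in EAE mice. In PBS-treated mice it ran from 1.01 through 1.37 to 2.03 FPKM. Only EAE 5 lay above the PBS range, and only PBS 1 lay below the EAE range. The log2FC of Car8 was 0.04 ± 0.14 (edgeR adjusted p = 0.912), and an exact permutation test of the FPKM, two-sided over all 12870 divisions of the libraries, gave p = 0.561.

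Among the granule genes, Fat2 had the largest difference. Fat2 is a giant protocadherin found on the parallel fibres of granule cells. It ran from 0.0771 through 0.120 to 0.229 FPKM in EAE mice and from 0.122 through 0.219 to 0.305 FPKM in PBS-treated mice. All 8 PBS libraries lay above the EAE median, and 4 EAE libraries lay below every PBS library. The means were 0.133 ± 0.0487 and 0.216 ± 0.0616 FPKM (SD, n = 8), and the log2FC was -0.74 ± 0.22 (edgeR unadjusted p = 0.00247, adjusted p = 0.0710). The exact permutation test of the FPKM gave p = 0.0123, 1 of 9 such tests. Of 16 edgeR fits without 1 library, Fat2 passed adjusted p under 0.05 in 3, and the highest adjusted p was 0.154. The 3 were without EAE 7 (0.0273), without PBS 4 (0.0339) and without PBS 6 (0.0465). EAE 7 held the highest EAE value and PBS 4 and PBS 6 the lowest PBS values, so leaving each out widens the difference. With all libraries Fat2 passed by DESeq2 (adjusted p = 0.0215). It is long, and its level rests on only 37 to 184 counts per library.

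Neurod1, a basic helix-loop-helix factor that keeps granule cells alive and is also active in the dentate gyrus, ran from 1.34 through 1.88 to 2.19 FPKM in EAE mice. In PBS-treated mice it ran from 1.78 through 2.16 to 2.78 FPKM. In 7 of 8 EAE libraries Neurod1 lay below the PBS median, and 4 PBS libraries lay above every EAE library. The log2FC was -0.38 ± 0.13 (edgeR unadjusted p = 0.00733, adjusted p = 0.119), with an exact permutation p = 0.0197 for the FPKM.

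Cbln1, the cerebellin that binds presynaptic neurexin at this synapse, ran from 3.30 through 3.87 to 5.16 FPKM in EAE mice and from 3.08 through 5.03 to 5.66 FPKM in PBS-treated mice. The lowest library of all 16 was PBS 1, although 7 of 8 PBS libraries lay above the EAE median. The log2FC of Cbln1 was -0.28 ± 0.12 (edgeR unadjusted p = 0.0326, adjusted p = 0.236), and the exact permutation test of its FPKM gave p = 0.101. Without PBS 1 that exact permutation p was 0.0149, the only 1 under 0.05 of 16 fits without 1 library, where the highest was 0.177. On CPM, counts scaled to library size, the exact permutation p was 0.0493, and on log2(FPKM + 0.1) it was 0.121. Cbln3, which is secreted only in a complex with Cbln1, ran from 0.00861 through 0.111 to 0.258 FPKM in EAE mice. In PBS-treated mice it ran from 0.0147 through 0.134 to 0.206 FPKM. With 1 to 32 counts per library, Cbln3 varied 29.9-fold between libraries, and its fold of 0.982 had a 95% interval of 0.522 to 1.85, so a change within that interval was not detectable at this depth.

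Zic1 and Zic2 encode zinc finger factors that keep granule cell precursors dividing and remain on in mature granule cells, and they are also on in the meninges and in parts of the septum. Zic1 ran from 4.68 through 6.64 to 7.07 FPKM in EAE mice and from 4.36 through 5.64 to 7.90 FPKM in PBS-treated mice. The EAE libraries lay wholly within the PBS range. Zic2 ran from 4.36 through 5.33 to 5.87 FPKM in EAE mice and from 3.73 through 4.92 to 5.93 FPKM in PBS-treated mice. Over all libraries the log2FC was 0.0075 ± 0.12 for Zic1 and 0.08 ± 0.10 for Zic2 (edgeR adjusted p = 0.986 and 0.742).

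For Zic1, the direction of the difference turned between sets of libraries that were drawn from the same counts. Libraries EAE 6, 7 and 8 and PBS 5, 7 and 8 were more alike within their group than the other pairs. The median squared difference between their counts was 3.12 to 4.03 times that of counting noise, against 6.07 to 24.5 times for the other 50 pairs of the same group. Pairs of an EAE and a PBS library among these 6 were at 6.66 to 12.1 times. The closeness thus held within each group and not across the groups, so the set does not match EAE libraries to PBS libraries. The labels name no batch, so the set was drawn from the counts of all mRNAs, and a set chosen for its small spread has standard errors that are too small and p-values that are not a fair test. Within these 6 libraries Zic1 was 4.68, 4.96 and 5.18 FPKM in EAE mice and 6.95, 7.38 and 7.90 FPKM in PBS-treated mice, without overlap. Within the other 10, Zic1 ran from 6.40 to 7.07 FPKM in EAE mice and from 4.36 to 6.0 FPKM in PBS-treated mice, again without overlap but with EAE the higher. The share of all mRNAs without overlap in either set was not counted. The log2FC was -0.61 in the first set and 0.40 ± 0.09 in the second (edgeR adjusted p = 0.132). The difference between the sets was -1.01 ± 0.14 (edgeR interaction term, adjusted p = 0.00495), a test added after the data were seen and over sets drawn from the same counts, in which 0.0615% of all mRNAs passed.

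Cbln1 lay at 3.42 to 3.91 FPKM in EAE mice and at 5.16 to 5.66 FPKM in PBS-treated mice within the 6 libraries. Its log2FC there was -0.59, beside -0.09 ± 0.16 in the other 10 (edgeR adjusted p = 0.921). The difference between the sets did not pass for Cbln1 (edgeR adjusted p = 0.595) or for Zic2 (edgeR adjusted p = 0.573). Within these 6 libraries 24.1% of all mRNAs had an adjusted p under 0.05, so the 2 of 9 members that had one (Zic1 and Cbln1) are a share near that background. In the other 10, 0 of the 9 passed, against 0.0745% of all mRNAs. Fat2 was lower in EAE in both sets, with a log2FC of -0.49 in the 6 and -0.97 ± 0.25 in the 10 (edgeR adjusted p = 0.141 in the 10). With a term for the set, Fat2 passed over all 16 libraries (edgeR adjusted p = 0.0183), where 4.29% of all mRNAs did. That term was drawn from the same counts, so this p is not an independent test. Without the term the edgeR adjusted p was 0.0710.

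**Figure D2:**
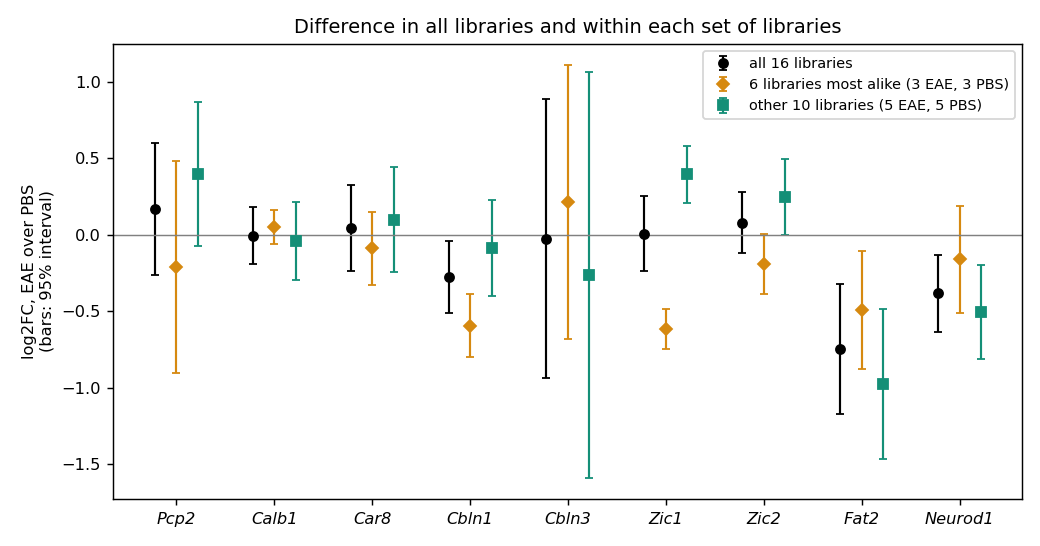
log2FC of EAE over PBS (vertical axis) for the 9 genes, with bars for the 95% interval. The 3 fits are of all 16 libraries, of the 6 most alike within their group and of the other 10. Zic1 lies at -0.61 in the 6 libraries, at 0.40 in the other 10 and at 0.0075 in all of them, while Fat2 lies below 0 in all 3 fits. The bars of the 6 libraries are too short, since that set was chosen for its small spread.

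The genes lie at these places in GRCm38, by the GENCODE annotation. Pcp2 is at 3623371 to 3625545 and Cbln1 at 87468405 to 87472609 on the minus strand of chromosome 8, and Zic1 at 91358058 to 91365810 on the minus strand of chromosome 9. Calb1 is at 15881264 to 15908064 on the plus strand of chromosome 4 and Car8 at 8143362 to 8239041 on its minus strand. Fat2 is at 55250609 to 55336564 on the minus strand of chromosome 11 and Neurod1 at 79452521 to 79456751 on the minus strand of chromosome 2. On chromosome 14, Cbln3 is at 55878913 to 55884392 on the minus strand and Zic2 at 122475435 to 122479852 on the plus strand. Exons of Pcp2 overlap Pet100 and exons of Zic1 overlap Zic4, each on the opposite strand, and exons of Neurod1 overlap Cerkl on the same strand and Gm26755 on the opposite strand. The strand setting of the counting is not given in the sources used here, so reads in those overlaps are uncertain.

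RefSeq promoter windows were at hand for 5 of the 9 genes (Pcp2, Cbln3, Zic1, Fat2 and Neurod1), 8 windows in all. The 250 bases before the start were searched for the E-box CANNTG, the motif of basic helix-loop-helix factors such as Neurod1, which reads the same on both strands. Each of the 8 windows held a match, as did 66.2% of 32851 windows genome-wide, and a match is a description of the letters and not a site. The sequences of Neurod1, itself such a factor, and of Zic1, whose difference turned with the library set, are shown 5′ to 3′ on the minus strand (RefSeq, GRCm38.p6), cut where an annotated exon begins. They are chr2:79456786-79456886 for Neurod1 and chr9:91365811-91366018 for Zic1, and capitals mark the E-box.
Neurod1: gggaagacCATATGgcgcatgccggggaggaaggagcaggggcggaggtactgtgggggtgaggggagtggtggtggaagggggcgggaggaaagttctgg
Zic1: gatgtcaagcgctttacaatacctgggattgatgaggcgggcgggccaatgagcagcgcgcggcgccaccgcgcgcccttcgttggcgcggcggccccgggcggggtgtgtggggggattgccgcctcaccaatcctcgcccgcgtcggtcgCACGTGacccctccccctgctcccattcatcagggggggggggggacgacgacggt

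The other genes of the same neurons were read from lists of 20 each. Of the other Purkinje genes, 0 of 20 passed adjusted p under 0.05 by edgeR, against 2.42% of all mRNAs. At an unadjusted p under 0.05, 6 were lower, against 9.52% of all mRNAs. Among the most abundant were Itpr1, the IP3 receptor to which Car8 binds, at 115 and 120 FPKM in EAE and PBS-treated mice, and Pcp4, a calmodulin regulator, at 51.5 and 60.3 FPKM. Both are also made by neurons outside the cerebellum. Ppp1r17 and Skor2, which are far more confined to Purkinje cells, were at 0.197 and 0.256 FPKM and at 0.0194 and 0.0116 FPKM. These 2 were named after their values were seen, and 14 of the 20 genes averaged over 1 FPKM. Pcp2, also nearly confined to Purkinje cells in brain, averaged 2.33 FPKM. In these libraries Pcp2 therefore stood above some of its fellow Purkinje markers and below the abundant ones.

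Of the other granule genes, 3 of 20 passed, 2 lower and 1 higher, against 2.42% of all mRNAs. Which cells the RNA of these 3 came from was not tested. Gabrd, the delta subunit of GABA-A receptors, fell from 27.3 ± 1.48 to 23.2 ± 2.24 FPKM (log2FC -0.28, edgeR adjusted p = 0.0175). Grin2c, an NMDA receptor subunit, fell from 10.5 ± 0.550 to 8.84 ± 0.961 FPKM (log2FC -0.30, edgeR adjusted p = 0.00969). Zic5, the paralog beside Zic2 on chromosome 14, rose from 0.687 ± 0.145 to 1.10 ± 0.189 FPKM (log2FC 0.63 ± 0.16, edgeR adjusted p = 0.0441). All 8 EAE libraries of Zic5 (0.856 to 1.37 FPKM) lay above all 8 PBS libraries (0.490 to 0.828 FPKM), in both library sets. How many of all mRNAs separated the groups in this way was not counted. Zic5 was named because it passed adjusted p under 0.05. The adjusted p of Zic5 stayed under 0.05 in 3 of 16 fits that each left out 1 library. Zic4 had a log2FC of 0.34 ± 0.12 (edgeR adjusted p = 0.121). The most abundant of the list was Slc17a7, the glutamate transporter of most forebrain excitatory neurons too, at 265 and 286 FPKM.

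Gabra6, a GABA-A receptor subunit that in brain is largely confined to granule cells, reached at most 4 counts in an EAE mouse and at most 7 in a control, with 31 counts in all and libraries at 0 in both groups. Its means were 0.0143 and 0.0363 FPKM. The granule genes that other brain regions share thus lay at several FPKM (Zic1, Zic2, Cbln1), while Gabra6, Cbln3 and Fat2, which are closer to granule cells alone, reached at most 0.305 FPKM in any library.

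**Figure D3:**
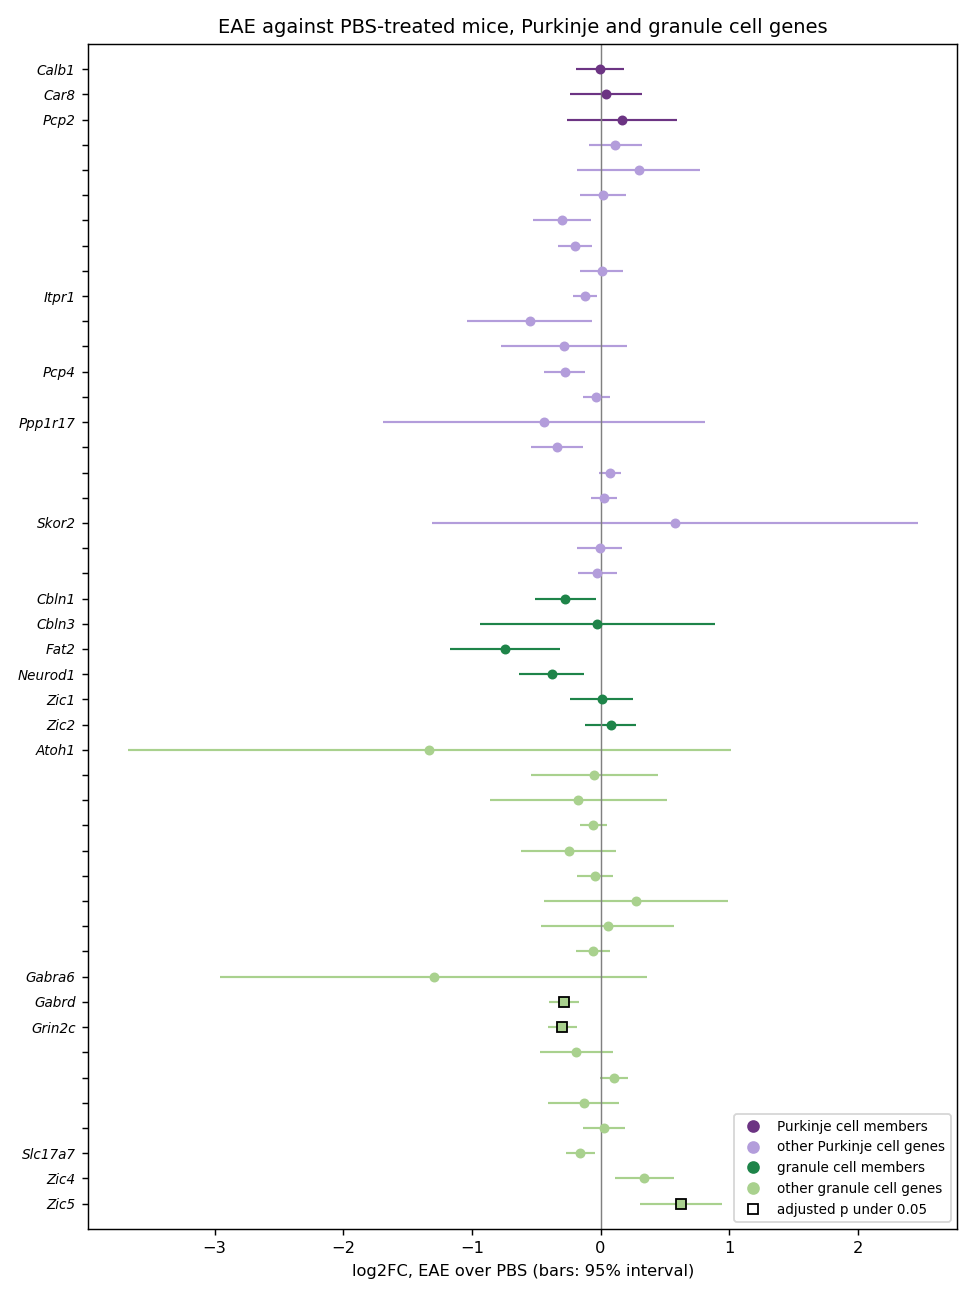
log2FC of EAE over PBS (horizontal axis, bars for the 95% interval) for the 9 genes in dark colour and genes of the other Purkinje and granule lists in light colour, a few of which are not drawn and only those named in the text labelled. Squares mark an adjusted p under 0.05, which are Zic5 above 0 and Gabrd and Grin2c below 0, and Gabra6, Atoh1 and Skor2 have the widest bars.

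Of 10 cerebellin partners and paralogs, 1 passed, against 2.42% of all mRNAs. Nrxn2, a presynaptic neurexin to which Cbln1 binds, fell from 84.2 ± 8.38 to 73.7 ± 3.61 FPKM (log2FC -0.24, edgeR adjusted p = 0.0294). Its adjusted p was under 0.05 in 8 of 16 fits without 1 library. The paralogs Cbln2 and Cbln4 had log2FC of -0.24 ± 0.11 and -0.41 ± 0.14 (edgeR adjusted p = 0.266 and 0.120).

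Summed by library, the 3 Purkinje genes came to 17.2 to 25.2 FPKM in EAE mice and to 17.1 to 22.5 FPKM in PBS-treated mice. The 6 granule genes came to 14.96 to 20.4 FPKM and to 13.9 to 21.0 FPKM. In both sums the groups overlapped. Most of the Purkinje sum was Calb1 (mean 15.9 FPKM), and most of the granule sum was Zic1, Zic2 and Cbln1 (6.0, 4.92 and 4.49 FPKM). Neurons outside the cerebellum or other brain regions share these genes, so the sums do not measure Purkinje or granule cells alone. The other Purkinje list summed to 317 to 370 FPKM over all 16 libraries and the other granule list to 318 to 416. Thalamic genes summed to 31.8 to 42.4 FPKM, meningeal genes to 23.6 to 39.5 and hindbrain genes to 0.370 to 1.58. Further lists stood higher in the same libraries. The 12 general neuron genes summed to 1234 to 1752 FPKM and 9 astrocyte genes to 1181 to 1778. The 9 oligodendrocyte genes summed to 917 to 1293 FPKM and the 12 cortical and hippocampal genes to at least 784. The 17 microglial genes, at 211 to 371 FPKM, did not stand above the other Purkinje and granule lists. Nor did the 10 striatal genes, at 199 to 328 FPKM. All 17 microglial genes averaged over 1 FPKM, as did all genes of the general neuron, astrocyte, oligodendrocyte, cortical and striatal lists. Among the lists, Syt1, Syp and Thy1 of the neuron list, Adora2a and Ppp1r1b of the striatal list, Ttr of the choroid plexus list and Slc4a4 of the astrocyte list were lower in EAE at an adjusted p under 0.05. Gfap, Trem2 and Itgam and the neutrophil genes S100a8, S100a9, Ngp and Ltf were higher. None of the 12 cortical and hippocampal, 8 thalamic, 12 other cerebellar, 5 hindbrain, 9 oligodendrocyte, 10 meningeal, 5 monocyte or 6 T cell genes tested passed. Of all mRNAs, 2.42% passed. What these lists contribute to the values of the 9 genes was not tested.

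**Figure D4:**
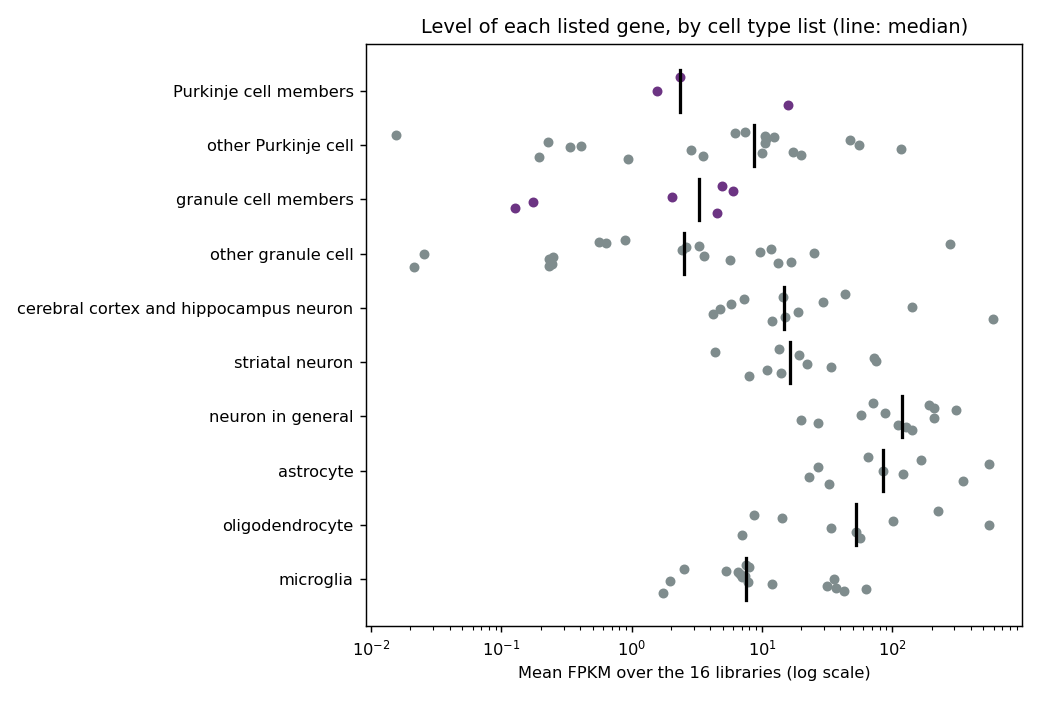
Mean FPKM over the 16 libraries (horizontal axis, log scale) of each gene in 10 cell type lists, 1 point per gene, with a line at each list's median. The Purkinje and granule members (purple) run from 0.126 to 15.9 FPKM, and the medians of the general neuron, astrocyte and oligodendrocyte lists are 119, 84.5 and 53.0 FPKM.

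The 9 genes did not vary as a block. Over the 16 libraries, which share library, depth and base composition effects, the 36 pairs had a median Pearson r of 0.11 on log2 CPM, from -0.55 for Car8 with Fat2 to 0.63 for Zic1 with Zic2. Only Zic1 with Zic2, Cbln3 with Fat2 (0.57) and Cbln1 with Zic1 (0.52) were over 0.5, and 14 pairs were below 0. Among the 3 Purkinje genes the highest was 0.30, for Pcp2 with Car8.

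**Figure D5:**
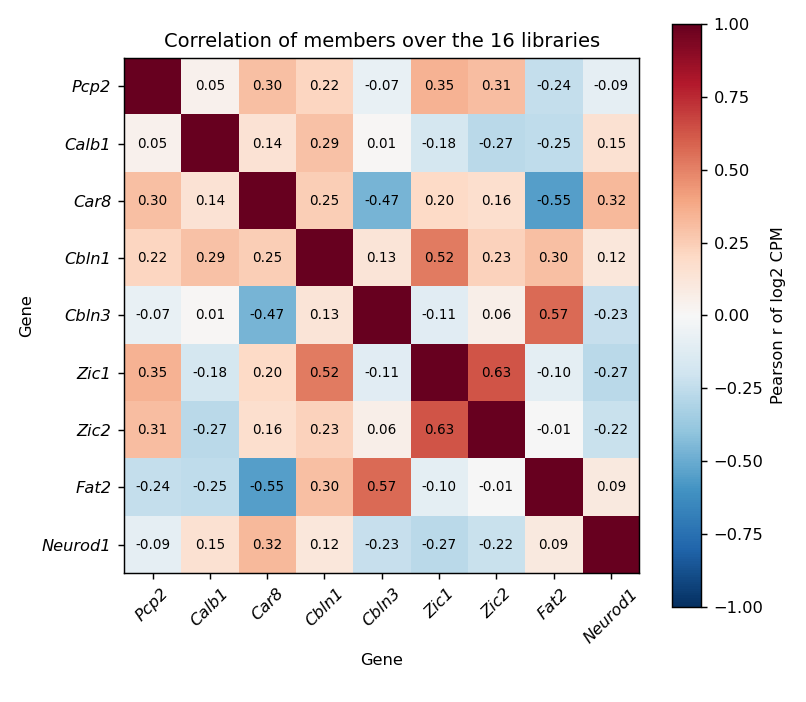
Pearson r of log2 CPM between each pair of the 9 genes over the 16 libraries, from blue (negative) to red (positive), with the value in each cell. The largest is 0.63 for Zic1 with Zic2 and the lowest is -0.55 for Car8 with Fat2.

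The lists that the genes went with differed among them. Over the 16 libraries Calb1 had r = 0.76 with the mean z score of the other Purkinje genes and 0.59 with the striatal genes, and Cbln1 had 0.74 with other cerebellar cells. Car8 had 0.73 with the oligodendrocyte genes, and Zic1 had 0.77 with the other granule genes, a list that holds its paralogs. The remaining members went less with the list of their own cell. Pcp2 had 0.03 and Car8 0.21 with the other Purkinje genes. With the other granule genes, Cbln1 had 0.36, Zic2 0.28, Neurod1 0.09, Fat2 0.03 and Cbln3 -0.26. Fat2 had -0.79 and Cbln3 -0.61 with the microglial genes, and Neurod1 had -0.67 with the neutrophil genes. These are descriptions over libraries that also differ by group.

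The non-member mRNAs with a mean of at least 1 CPM whose pattern was most like the mean z score of all 9 genes were Isoc1 (r = 0.89), Bloc1s3 (0.82), Wnt5a (0.81), Grb2 (0.81), Fcgr3 (0.81), Ankfn1 (0.80), Ildr2 (0.79), Sema3c (0.79), Rab22a (0.79) and Dnaja2 (0.78), each over 16 libraries. For the 3 Purkinje genes alone they were Gnpda2 (0.92), Rspry1 (0.90), Cenpv (0.86), Sec11c (0.86) and Gm32856 (0.85). For the 6 granule genes alone they were Grb2 (0.95), Otub1 (0.94), 1810041L15Rik (0.89), Gprasp1 (0.89) and Cxxc5 (0.88). None of the other Purkinje or granule genes was among them.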

How the data were processed

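Total RNA was sequenced from 8 EAE and 8 PBS-treated mice, 1 library each, per the labels. The authors aligned reads with HISAT2 2.1.0 to GRCm38 and deposited HTSeq 0.11.2 counts per mRNA, without normalization, and FPKM values, which scale those counts by transcript length and library size. The submitters' processing notes also name DESeq2 1.22.2.

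Counts were tested with edgeR 4.0.16 (R 4.3.3, TMM, quasi-likelihood, mRNAs with at least 16 counts in total, 17885 of 21878), with Benjamini-Hochberg adjustment over all of them. FPKM of each gene was compared by an exact permutation test, two-sided. The fit was tested on simulated data for 8 against 8 libraries, where 90% of 200 genes changed by 1.5 on the log2 scale were recovered among 17810. Alternatives were RLE, upper quartile or total scaling, other filters, DESeq2 1.42.0, limma 3.58.1 on log2(FPKM + 1) and log2(FPKM + 0.1), a replicate block, library sets and leaving out each library. With 24587443 to 34184576 counts per library, intervals of low genes are wide.

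The members and gene lists were chosen with earlier results of these data known. Named beside the 9 genes are those of the other Purkinje and granule lists past adjusted p under 0.05 or among the 3 most abundant, genes past it in the remaining lists, and the nearest patterns. Ppp1r17, Skor2, Gabra6, Zic4, Cbln2 and Cbln4 were named after their values were seen. Gene positions are from GENCODE vM21 and promoter sequences from RefSeq. A few listed genes are not reported here.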

Additional observations from a re-analysis of the deposited data

Results flagged for a closer look

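Pcp2 in PBS 8, at 4.01 FPKM, stood apart from the other 7 PBS libraries, the nearest of which was at 2.36 FPKM. The gap was 0.597 of the range of the group. This was 1 of 18 groups examined (9 genes in 2 conditions), and chance flags about 1 in 20 such groups. Without PBS 8, the exact permutation test of the Pcp2 FPKM gave p = 0.0347 with EAE the higher, against p = 0.347 with it. That was the lowest p of 16 such tests without 1 library, and the highest was 0.601. PBS 8 was singled out for holding the highest PBS value, so the p without it is not a fair test. The edgeR fit without PBS 8 gave adjusted p = 0.373 for Pcp2.

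For Zic1, the EAE minus PBS difference in the 6 libraries most alike minus that in the other 10 was -1.01 on the log2 scale (SE 0.14, edgeR interaction term, adjusted p = 0.00495). It was flagged because the difference itself passed the test over all mRNAs. The sets were drawn from the counts and are not groups of the study, and what sets them apart was not tested.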

How the results depend on the processing

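Over all 12 other settings and all 16 fits without 1 library, the log2FC of Fat2 (-0.97 to -0.10), Neurod1 (-0.50 to -0.16) and Cbln1 (-0.59 to -0.09) stayed below 0. The -0.10 of Fat2 is from limma on log2(FPKM + 1), where the added 1 outweighs its level of 0.175 FPKM. In the fits on counts Fat2 ran from -0.97 to -0.49. The number of the 9 genes past adjusted p under 0.05 was 0, but 1 by DESeq2 (Fat2), 1 with a term for the 6 libraries most alike (Fat2), 2 within those 6 (Cbln1 and Zic1), and 0 to 1 when a library was left out (Fat2 without EAE 7, PBS 4 or PBS 6). The number at an unadjusted p under 0.05 was 2 or 3 throughout. Cbln1 was not among them with library totals only, limma, the replicate block or the other 10 libraries, and Zic1 was among them within each library set. The TMM factors were 1.0046 to 1.0322 in EAE and 0.9601 to 0.9973 in PBS libraries. Over all mRNAs 433 passed adjusted p under 0.05. DESeq2 gave 899, limma 237 on log2(FPKM + 1) and 205 on log2(FPKM + 0.1), the set term 768, the 6 libraries 4147 and the other 10 only 13. Leaving out a library gave 144 (without PBS 2) to 1317 (without EAE 4). The sets were drawn from the same counts and hold fewer samples, the 6 were chosen for their small spread, and the cause of the other shifts was not tested.

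Differences near 0 changed sign. Within the 6 libraries the log2FC was -0.21 for Pcp2, 0.051 for Calb1, -0.088 for Car8, 0.22 for Cbln3, -0.61 for Zic1 and -0.19 for Zic2. Calb1 also gave 0.015 with upper quartile scaling, 0.047 with totals only, 0.00056 with edgeR's own filter, and 0.034 and 0.035 with limma. Cbln3 gave 0.021 with totals only and 0.00053 with limma on log2(FPKM + 1). Without 1 library the log2FC of Calb1 ran from -0.064 to 0.039, of Car8 from -0.040 to 0.11, of Cbln3 from -0.25 to 0.15 and of Zic1 from -0.050 to 0.074. The difference in mean FPKM ran from -0.176 to 0.979 for Calb1 and from -0.0168 to 0.0187 for Cbln3. On CPM it was -0.132 for Calb1 and -0.0104 for Cbln3, and on log2(FPKM + 0.1) it was -0.0298 for Cbln3. None of these had a p under 0.05 but that of Zic1 within the 6 libraries. The cause was not tested.

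With the replicate number as a block, 517 mRNAs and 0 of the 9 genes passed. The numbers did not pair the libraries: the deviations of same-numbered libraries had an r over 0.1 in 3 of 8 pairs (-0.247 to 0.602), and a library matched its own number best in 2 of 8. Depth limits Cbln3, Pcp2 and Fat2 most.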
